A study of Arabidopsis thaliana with 8 samples.

Results

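*HAT1* (AT4G17460), *HAT2* (AT5G47370), *HB-2* (AT4G16780, also called *ATHB2*) and *HAT22* (AT4G37790) are *Arabidopsis* genes of class II of the homeodomain-leucine zipper (HD-ZIP) family. They were chosen by locus, and a gene was measured here where a probe set of the array was named for it by the platform annotation or by the study's lists of hormone-regulated transcripts. By this rule 2 of the 4 genes were measured, of 13771 loci named on the array, each by 1 probe set. *HAT2* was named by the annotation and *HAT1* through the study's lists alone. *HB-2* and *HAT22* had no probe set named and were not analysed here. *HAT3* (AT3G60390), the one of 6 further HD-ZIP II genes with a named probe set, is given beside them. *HAT1*, *HAT2* and *HAT3* all stand in the study's list of transcripts raised by auxin, which came from other arrays, so the measured genes lean toward auxin-regulated ones. *HAT1* and *HAT3* also stand in its list of transcripts lowered by brassinosteroid (BR), which the study chose on the same wild-type (WT) arrays, so their response in WT is not independent evidence of its direction.

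HD-ZIP proteins are transcription factors found in plants, in which a homeodomain that binds DNA is joined to a leucine zipper through which the proteins pair. Class II proteins mostly repress transcription, and several repress class members including their own gene. *HB-2* is the classic gene induced by far-red-rich shade light, and *HAT2* was isolated as a gene that responds early to auxin. HAT1 is known to be phosphorylated by the BIN2 kinase of the BR pathway. It is also known to act with BES1, a transcription factor of that pathway, in repressing target genes. *HAT22* has been linked to abscisic acid and leaf ageing.

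RNA of whole light-grown seedlings was hybridized to 8 Affymetrix ATH1 arrays in 4 groups of 2. WT seedlings were Columbia (Col-0). *yucca* seedlings overproduce auxin through a gain-of-function *YUCCA* flavin monooxygenase gene, so that auxin is high throughout growth and not for a set time, and the labels name no allele. By the methods of the paper, *yucca* is in a Columbia background. Within each genotype, seedlings stood for 2.5 h in medium alone (mock) or with 1 μM of the potent BR brassinolide (BL). All groups shared the age, which is 10 d in the labels and 1 d less in the paper, the growth in light and the immersion. The paper calls the arrays of a group independent biological replicates. Since the samples were whole seedlings, fewer cells with a transcript and less transcript per cell cannot be told apart.

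The authors' values are intensities in arbitrary units. Array medians lay between 86.8 and 90.0 in WT and between 44.7 and 46.4 in *yucca*, and equal values on 2 arrays occurred only within a genotype, as after separate normalization. Responses to BR were therefore taken within each genotype on the deposited values, and *yucca* was compared with WT on values quantile-normalized over all arrays. Across probe sets, the median log2 SD between replicates was 0.0699 for mock and 0.0656 for BR in WT, and 0.102 for mock and 0.0879 for BR in *yucca*. Calls were made with limma over 22746 probe sets by the paper's criteria, which ask for an adjusted p under 0.10 together with B, the log odds that a transcript differs, above 0. BL treatment was visible in both genotypes in 4 BR feedback genes, as *DWF4*, *CPD* and *BR6OX2* of BR synthesis fell and *BAS1* of BR inactivation rose, but the probe sets of all 4 were named through lists drawn on these arrays.

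After BR treatment, *HAT1* fell in WT and in *yucca* seedlings, while *HAT2* did not pass the test in either genotype. In WT, *HAT1* stood at intensities of 849.6 and 865.7 on the mock arrays and at 327.7 and 334.8 on the BR arrays. The groups did not overlap, as with 25.1% of all probe sets that were lower after BR, and replicates lay close together. The means were 858 ± 11.3 (SD, n = 2) and 331 ± 5.02 (SD, n = 2), a 2.59-fold fall, and the log2 fold change was −1.37 (standard error, SE, 0.189; limma adjusted p = 0.00553, B = 2.49). Of all 22746 probe sets, 24 had a lower log2 fold change, and 2.15% were called, 1.21% higher and 0.945% lower. The call of *HAT1* ended without WT mock replicate 1 (−1.39, adjusted p = 0.0627, B = −0.0288) or WT mock replicate 2 (−1.36, adjusted p = 0.0722, B = −0.134), as B then fell below 0.

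In *yucca*, *HAT1* stood at 290.1 and 227.6 on the mock arrays and at 93.3 and 60.4 on the BR arrays. Every BR array was again below every mock array, as for 21.6% of all probe sets, with a wider spread between replicates than in WT. The log2 fold change was −1.78 (SE 0.189, limma adjusted p = 0.000763, B = 4.52), a 3.42-fold fall, and 32 of all probe sets had a lower one, with 3.42% called, 1.76% higher and 1.66% lower. This call held under all 17 alternatives, between −2.09 and −1.46. The log2 SD between replicates of *HAT1* was 0.0191 (mock) and 0.0219 (BR) in WT, and 0.247 and 0.444 in *yucca*, yet the SE was shared. With only the 2 groups of a genotype fitted, WT had the firmer call (limma adjusted p = 0.000649, B = 6.80). The *yucca* call was then nearer the threshold (limma adjusted p = 0.0275, B = 0.957). The study's lists did not choose *HAT1* by its response in *yucca*, and these 4 arrays are separate from those of WT, though the spread was estimated over all 8.

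**Figure D1:**
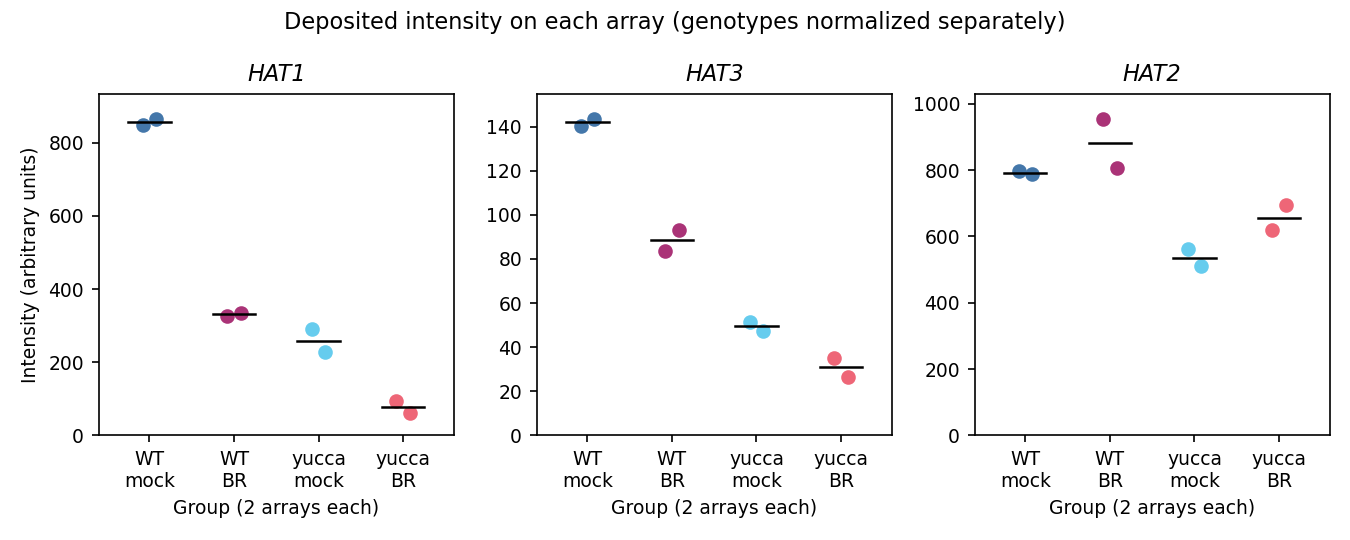
Deposited intensity (arbitrary units, linear axis from 0) of *HAT1*, *HAT3* and *HAT2* on each of the 8 arrays. Points are arrays, horizontal lines are means of 2, and the scale differs between genotypes, so only mock and BR arrays of 1 genotype can be compared. *HAT1* lies at 849.6 and 865.7 in WT mock and at 327.7 and 334.8 in WT BR, and *HAT3* is lower after BR in both genotypes, whereas *HAT2* is not.

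The difference between the *HAT1* responses was within the error. The log2 fold change was lower in *yucca* by 0.40 (interaction −0.40, SE 0.267, limma adjusted p = 0.79), with a 95% interval from −1.01 to 0.20. On the linear scale, *yucca* BR over mock was 0.756 of the same ratio in WT, with an interval from 0.497 to 1.15. The difference was −0.72 without *yucca* BR replicate 1 and −0.09 without *yucca* BR replicate 2, with no call in either case. Of all probe sets, 0.0264% were called for the interaction. At this number of arrays, similar responses of *HAT1* in both genotypes were not shown either.

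*HAT3*, the other measured class II gene, stood at 140.3 and 143.6 in WT mock and at 83.6 and 93.3 in WT BR arrays. In *yucca* it stood at 51.6 and 47.3 after mock and at 35.2 and 26.6 after BR. All BR arrays were below the mock arrays of their genotype, as for 25.1% of all probe sets in WT and 21.6% in *yucca*. The log2 fold change was −0.68 in WT (SE 0.135, limma adjusted p = 0.029, B = −0.219) and −0.69 in *yucca* (SE 0.135, limma adjusted p = 0.0168, B = −0.319). Both passed the adjusted p and missed B above 0, so neither was called, but these calls depended on the setting. *HAT3* was called for BR in WT under 6 of 17 alternatives, including the fit of only the 2 groups compared (adjusted p = 0.0085, B = 1.63) and that without either *yucca* BR array (B = 1.60). In *yucca* it was called under 4 of 17, including equal array medians (B = 0.339) and the fit without *yucca* BR replicate 1 (−0.89, B = 1.98). Other settings weakened *HAT3*. With only the 2 groups fitted, the *yucca* value missed the adjusted p as well (limma adjusted p = 0.121, B = −2.06). With any 1 WT array left out, the WT value lay between −0.76 and −0.61 and missed the adjusted p. In the main fit, adjusted p alone was passed, with lower values after BR, by 2.01% of all probe sets in WT and by 4.64% in *yucca*. The *HAT3* responses differed by −0.0048 on the log2 scale (interval −0.44 to 0.43).

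*HAT2* showed no fall. In WT it stood at 796.5 and 786.8 on mock and at 954.7 and 807.8 on BR arrays. BR replicate 2 was barely above the mock arrays, and after quantile normalization it lay between them, at 570.4 against 573.1 and 561.6. The log2 fold change was 0.15 (SE 0.113, limma adjusted p = 0.755), with an interval from −0.11 to 0.41, and it was 0.03 without WT BR replicate 1 and 0.27 without WT BR replicate 2. In *yucca* it stood at 562.6 and 509.8 after mock and at 619.2 and 693.9 after BR, a log2 fold change of 0.29 (SE 0.113, limma adjusted p = 0.201), with an interval from 0.04 to 0.55. Groups did not overlap in *yucca*, but 20.1% of all probe sets were higher without overlap there. The intervals allow a rise of *HAT2* by at most 1.32-fold in WT and 1.46-fold in *yucca*, and a fall by more than 0.11 on the log2 scale lies outside both.

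**Figure D2:**
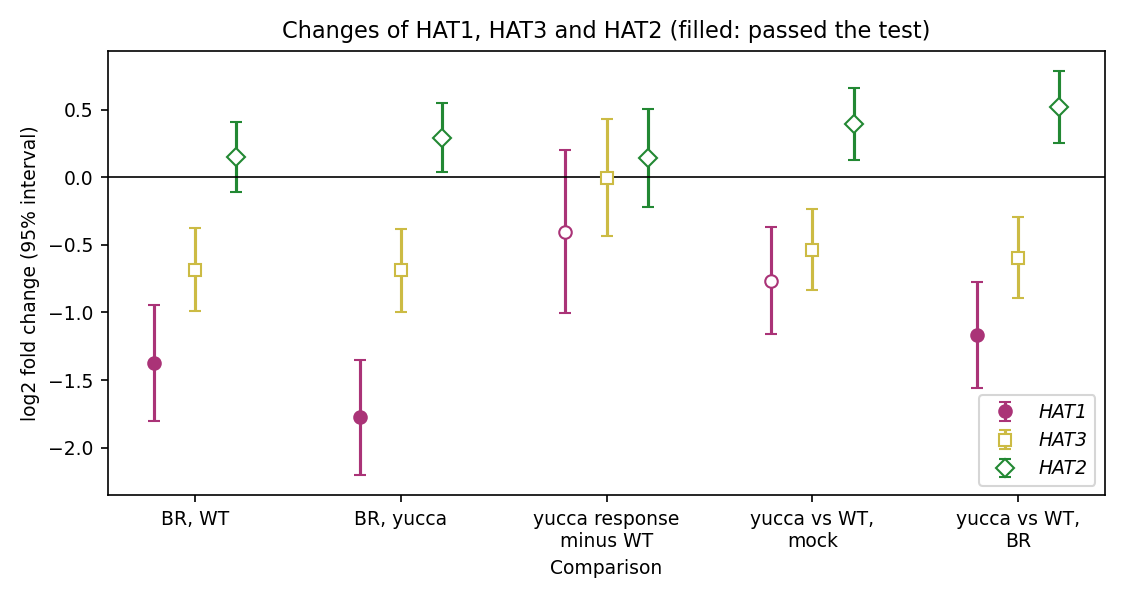
Log2 fold changes of *HAT1* (circles), *HAT3* (squares) and *HAT2* (diamonds) in 5 comparisons, with 95% intervals. Filled symbols passed an adjusted p under 0.10 and B above 0. *HAT1* is at −1.37 in WT and −1.78 in *yucca* after BR, *HAT3* at −0.68 and −0.69, and *HAT2* at 0.15 and 0.29. The 3 intervals of the difference between responses all include 0.

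Taking the mean of both genotypes' responses, a comparison added after the values were seen, gave more precise values from all 8 arrays. *HAT1* fell by 1.57 in log2 units (SE 0.134, limma adjusted p = 0.000131) and *HAT3* by 0.69 (SE 0.0955, limma adjusted p = 0.00205). Both calls held when any single array was left out. *HAT2* was at 0.22 (SE 0.0801, limma adjusted p = 0.157) and was not called. Of all probe sets, 2.13% were called lower. The 95% intervals were −1.88 to −1.27 for *HAT1*, −0.90 to −0.47 for *HAT3* and 0.04 to 0.40 for *HAT2*. The difference between genes was not tested, and the mean includes the WT arrays on which *HAT1* and *HAT3* were listed as lowered by BR.

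Between genotypes, on quantile-normalized intensities, *HAT1* was lower in *yucca* than in WT after BR, and *HAT2* had higher values in *yucca*, which turned to lower ones as deposited. These comparisons use the same arrays as the responses to BR. Among mock arrays *HAT1* stood at 613.5 and 613.3 in WT and at 401.2 and 324.6 in *yucca*. The groups did not overlap, and 37.7% of all probe sets were lower in *yucca* without overlap (72.9% in either direction). The log2 fold change was −0.77 (SE 0.175, limma adjusted p = 0.00671, B = −1.82), which passed the adjusted p but was not called, where 17.4% of all probe sets were called and 53.5% passed the adjusted p. With BR, *HAT1* stood at 237.9 and 236.6 in WT and at 129.2 and 86.4 in *yucca*. This log2 fold change of −1.17 (SE 0.175, limma adjusted p = 0.000785, B = 1.41) was called, as 16.8% of all probe sets were, while 53.3% passed the adjusted p. Without overlap, 38.7% of all probe sets were lower in *yucca* with BR (75.9% in either direction). The call ended without WT BR replicate 1 (−1.16) or WT BR replicate 2 (−1.17).

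*HAT2* stood at 573.1 and 561.6 on WT mock arrays and at 775.2 and 716.7 on *yucca* mock arrays. After BR it stood at 698.4 and 570.4 in WT and at 848.1 and 962.9 in *yucca*. Each *yucca* array was above both WT arrays of the same treatment, but 72.9% (mock) and 75.9% (BR) of all probe sets did not overlap in either direction. The log2 fold changes of 0.39 (SE 0.118, limma adjusted p = 0.0236, B = −3.51) and 0.52 (SE 0.118, limma adjusted p = 0.00687, B = −1.76) passed the adjusted p and were not called. On the values as deposited, where the median of all log2 differences was −0.869 among mock arrays, *HAT2* turned to −0.56 (mock) and −0.42 (BR), above that median in either case. *HAT3* was at −0.53 (limma adjusted p = 0.00976, mock) and −0.59 (limma adjusted p = 0.00596, BR), and was not called on quantile-normalized values. As deposited it was at −1.52 (mock) and −1.53 (BR), the lowest values of all alternatives. Among the alternatives it was called under 2 of 17 (mock) and 3 of 18 (BR).

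**Figure D3:**
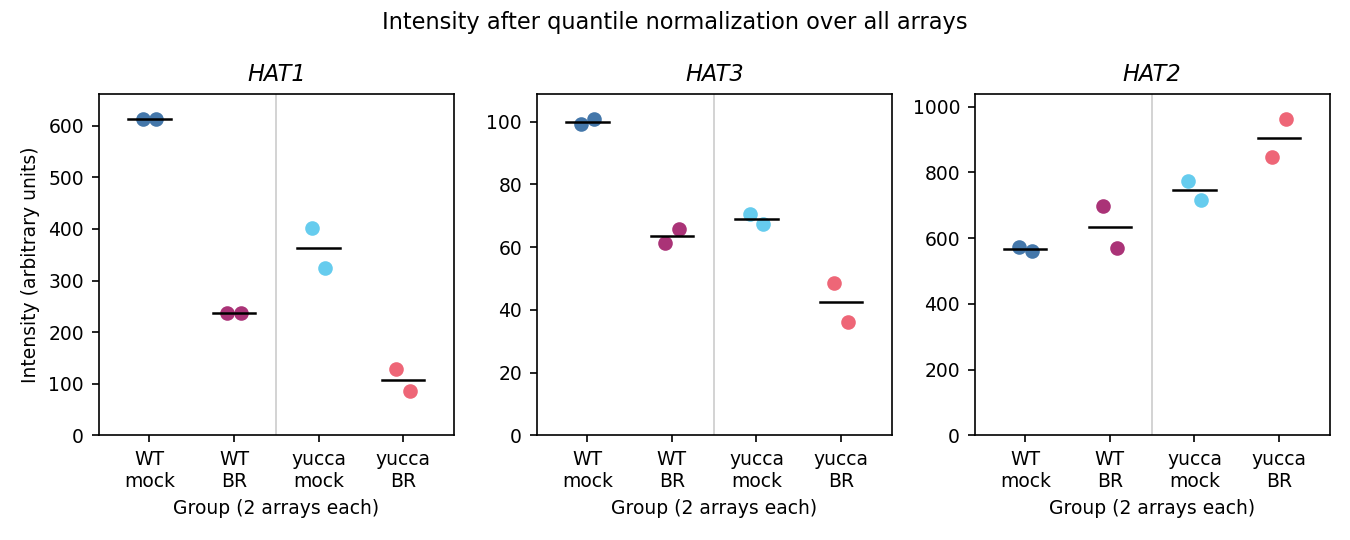
Intensity of *HAT1*, *HAT3* and *HAT2* on each array after quantile normalization over all 8 arrays (arbitrary units, linear axis from 0). Points are arrays, horizontal lines are means of 2, and the grey line parts the genotypes. *HAT1* runs from 613.5 and 613.3 in WT mock to 129.2 and 86.4 in *yucca* BR, the lowest group, which for *HAT2* is the group with the highest values, 848.1 and 962.9, although as deposited WT BR was highest.

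Ordered by level on this scale, *HAT1* was highest in WT mock (613 ± 0.148, SD, n = 2), followed by *yucca* mock (363 ± 54.2), WT BR (237 ± 0.898) and *yucca* BR (108 ± 30.2). No neighbours in this order overlapped. Of all probe sets, 72.9% did not overlap between the mock groups and 75.9% between the BR groups, in either direction. The share was not counted for the middle pair. *HAT3* had the same order, from 100.1 ± 1.23 through 69.1 ± 2.19 and 63.5 ± 3.24 to 42.5 ± 8.74, also without overlap. For both genes the middle groups changed places on the values as deposited, where WT BR was above *yucca* mock (331 and 259 for *HAT1*, 88.4 and 49.4 for *HAT3*), so the order of these 2 groups rests on the normalization. *HAT2* had another order, which likewise differed from that of its deposited values, with *yucca* BR at 906 ± 81.2, *yucca* mock at 746 ± 41.4, WT BR at 634 ± 90.5 and WT mock at 567 ± 8.17. Its WT groups overlapped. On the mean of both treatments, a comparison added after the values were seen, *yucca* differed from WT by −0.97 for *HAT1* (SE 0.123, limma adjusted p = 0.000157), −0.56 for *HAT3* (SE 0.0934, limma adjusted p = 0.000734) and 0.46 for *HAT2* (SE 0.0836, limma adjusted p = 0.00134, B = −0.523), where 27.6% of all probe sets were called. *HAT1* and *HAT3* were called and *HAT2* missed B above 0. The call of *HAT3* ended without any one of 6 arrays (B between −1.58 and −0.581), which were all but the *yucca* BR arrays, while that of *HAT1* held without any single array.

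A shift in level of a whole array cancels when 2 transcripts are set against each other on the same array. The log2 intensity of *HAT1* less that of *HAT2*, relative to its mean on WT mock arrays, was −1.66 and −1.39 on WT BR, −1.07 and −1.28 on *yucca* mock, and −2.85 and −3.64 on *yucca* BR arrays. *HAT1* was thus lowered against *HAT2* by BR in both genotypes and lower against it in *yucca* under both treatments. Between the mock groups of both genotypes this difference was −1.17 on deposited and −1.16 on quantile-normalized values. Scaling of whole arrays moves both genes nearly alike, so this closeness was set in advance and is not separate evidence. For *HAT3* less *HAT2*, the same difference was −0.96 and −0.93. This pair of genes was set against each other after their values were seen, so the differences are a description with no test. They show unequal change, and not which of the genes changed.

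**Figure D4:**
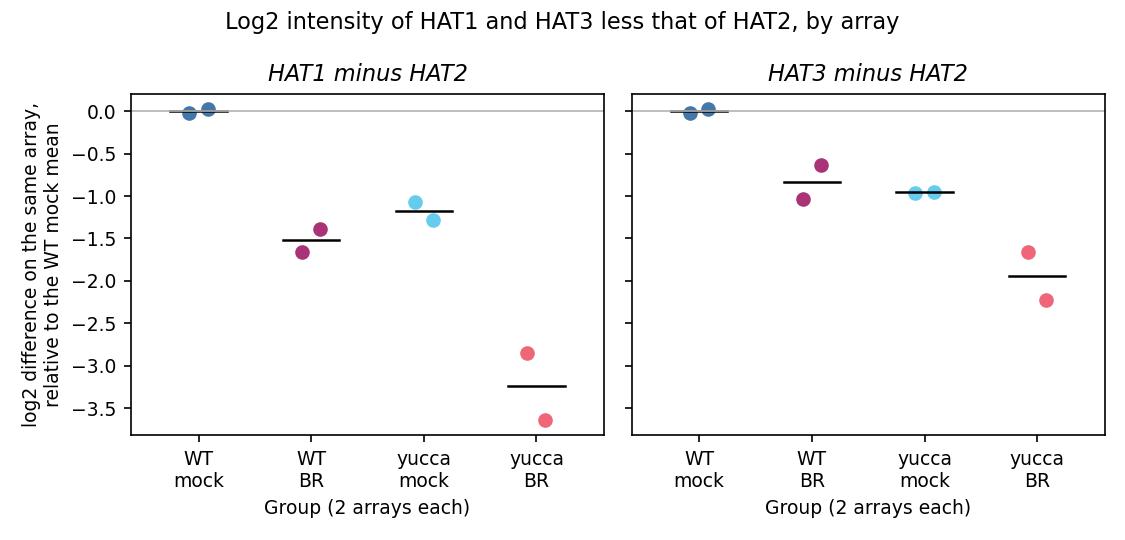
Log2 intensity of *HAT1* (left) and *HAT3* (right) less that of *HAT2* on the same array, from deposited values and relative to the mean of the WT mock arrays (0). Points are arrays and horizontal lines are means of 2. For *HAT1* the *yucca* mock arrays are at −1.07 and −1.28. Its *yucca* BR arrays, at −2.85 and −3.64, are below those of all other groups.

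Probe sets of root and photosystem genes differed between genotypes. Of 10 root markers, 4 were measured, and their summed quantile-normalized intensity was between 1366 and 1703 in WT and between 307.9 and 637.9 in *yucca*. *PRP3*, *COBL9* and *PIP2;4* were named only through the study's list of transcripts lowered by auxin, so lower values in *yucca* were favoured by how they were named, and *EXPA7* by the annotation. *COBL9* and *PIP2;4* were called lower among mock arrays, and *PRP3* and *EXPA7* had values of −2.29 and −0.82 without a call. None of 8 shoot markers was named. In their place 28 photosystem probe sets, chosen after it was seen which were named, summed to between 96613 and 99976 in WT and between 74440 and 80946 in *yucca*, with 11 called lower and 1 higher among mock arrays, where 8.79% of all probe sets were called lower and 8.56% higher. *COBL9* and *PIP2;4* together were 1 call without WT mock replicate 1 or *yucca* mock replicate 2. After BR, limma called 0 of the 4 root markers in either genotype, with 1 at an unadjusted p under 0.05 in each, *PIP2;4*. Calls over all probe sets were 2.15% in WT and 3.42% in *yucca*, and their share at that unadjusted p was not counted. The part of these marker differences in the levels of *HAT1*, *HAT2* and *HAT3* between genotypes was not tested.

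Among genes that work with HD-ZIP II proteins or share their pathways, responses to BR went both ways. Over all probe sets, 1.21% were called higher and 0.945% lower in WT, and 1.76% higher and 1.66% lower in *yucca*. Of 17 HD-ZIP I genes, the sister class, 3 were measured, all through lists drawn on these arrays. *HB5* fell in WT (−1.06, SE 0.0996) and *yucca* (−0.92), *HB23* rose (1.17 and 1.22), and *HB52* fell in WT (−0.96) with −0.70 and no call in *yucca*. *HB23* lay below its array's median on every array but *yucca* BR replicate 2, so its folds are more open to background. Of the HD-ZIP I genes, 1 in place of 2 was called lower in WT without either WT mock array or without WT BR replicate 1. *PHV*, the 1 measured of 5 HD-ZIP III genes, which set the upper side of leaves, was at 0.05 and −0.09 and was not called. Of 6 BR signalling genes, 2 were measured, both named through lists chosen for BR response on the WT arrays, so their direction in WT was set by the naming. *BRI1*, the BR receptor, fell by 1.03 in WT and by 1.22 in *yucca* on the log2 scale. The probe set named *BZR1*, which is of a kind that similar transcripts share, rose 1.62-fold in WT and 2.14-fold in *yucca*, and the WT call ended with replicate 2 of either WT group left out.

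Of 29 genes of shade avoidance and its auxin branch, 8 were measured. In WT there were 3 that rose and 2 that fell, while 3 missed the threshold. Of all probe sets, 1.21% were called higher and 0.945% lower. The median log2 fold change was −0.18 against −0.01 over all probe sets. *SAUR15* (2.11), *IAA6* (1.79) and *IAA19* (0.92) rose, the first a small auxin-upregulated RNA and the others Aux/IAA repressors of auxin signalling. *PIN3*, an auxin efflux carrier, fell by 0.73, and *PHYE*, a phytochrome, by 0.61. In *yucca*, 3 rose and 2 fell, with a median of −0.04, where 1.76% of all probe sets were called higher and 1.66% lower. *SAUR15*, *IAA6* and *IAA19* rose there too (2.45, 2.29 and 1.29), *PIN3* again fell, by 0.92, and *PHYE* was at −0.51 with no call. *FHL*, which helps phytochrome A into the nucleus, fell by 0.93 after a value of −0.58 with no call in WT. *SAUR15*, *IAA6*, *PIN3* and *PHYE* stand in lists drawn on the WT arrays, so the WT count is not independent evidence. With quantile normalization over all arrays or equal array medians, 1 in place of 2 was called lower in WT. With only the 2 groups fitted, 1 in place of 2 was called lower in *yucca*. The count of 2 lower in WT was 0 if WT mock replicate 1 was left out or if WT BR replicate 2 was, and 1 if either other WT array or either *yucca* BR array was. The count of 2 lower in *yucca* was 1 without either WT mock array or *yucca* BR replicate 2. Among mock arrays of both genotypes, on quantile-normalized values, *FHL* alone of the 8 was called, where 17.4% of all probe sets were. *FHL* was 1.31 higher in *yucca* on the log2 scale. It was not called without WT mock replicate 2 or on the values as deposited. *FHL* lay below its array's median on all 8 arrays, at deposited intensities of 15.0 to 36.3, and *IAA6* did on every mock array. *SAUR15* did on the WT mock arrays and on *yucca* mock replicate 2. Their folds are therefore more open to background.

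**Figure D5:**
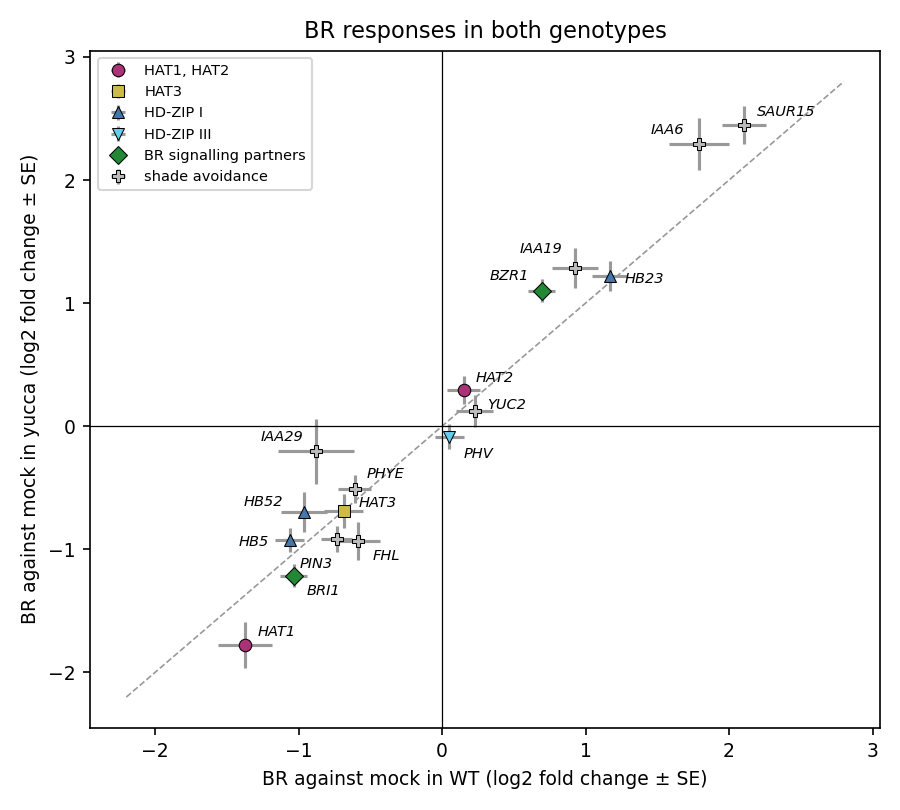
Log2 fold change after BR in WT (horizontal) and in *yucca* (vertical), with standard errors, for the measured HD-ZIP, BR signalling and shade avoidance genes. The dashed line marks equal responses. *HAT1* is the lowest point, at −1.37 and −1.78, *HAT3* lies near the line at −0.68 and −0.69, and *HAT2* lies near 0 with 0.15 and 0.29.

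For a difference in the BR response between genotypes, limma called 0 of the 25 measured genes of all lists but the photosystem list. Since 0.0264% of all probe sets were called, this count says little about these genes. An unadjusted limma p under 0.05 was found for 3 of the 25, and the share of all probe sets at that p was not counted. The lowest p was that of the *BZR1* probe set, at 0.41 (SE 0.133, limma adjusted p = 0.477). Likeness over the 8 arrays was taken by Pearson r of quantile-normalized log2 values. It was sought among 3542 probe sets that varied and were named by 1 gene in the platform annotation. Genes named through the study's lists alone, such as *HAT1* and *HAT3*, and probe sets with no gene named could not be picked. Within this set, the transcripts most like *HAT1* were AT4G25780 (r = 0.990), AT3G44610 (0.987) and AT1G14890 (0.986). Those most like *HAT2* were AT2G02830 (0.995), which is annotated as a pseudogene, AT4G33985 (0.987) and AT1G18290 (0.978). For *HAT3* they were AT5G57340 (0.988), AT3G19680 (0.984) and again AT1G14890 (0.980). The log2 fold change of AT4G25780 after BR was −1.06 in WT and −1.44 in *yucca*. The 8 points share 4 groups and the most alike of 3542 probe sets were picked, so these r values are a description.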

How the data were processed

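Per the labels and methods, rma (background correction, quantile normalization and summary of probes) was run by the authors, who deposited linear intensity values, 1 per probe set and array. Between 19 and 86 probe sets had equal values on 2 arrays of a genotype and 0 on arrays of different genotypes, as arises when genotypes are normalized separately. Of 22810 probe sets, 64 controls were dropped. Of the rest, 13436 were named by 1 gene matched to a locus in the platform annotation and 485 through the study's lists alone, from which no values were taken. A limma 3.58.1 model (R 4.3.3) described log2 intensities by a mean per group over all 8 arrays, with moderated spreads, an assumed proportion of changed genes of 0.01 and Benjamini-Hochberg adjustment per comparison. The fits were tested on simulated data. *yucca* was compared with WT after quantile normalization over all arrays. Genes, lists and tests were chosen with earlier results of these data known. Named were *HAT1* to *HAT3* and up to 3 called genes of each list. For each HD-ZIP II gene, the 3 most like it were also named, among annotated single-gene probe sets with an SD of at least 0.3. Further genes of short lists were named after their values were seen. Same-numbered replicates deviated together within genotypes (r = 0.225 and 0.407) but not between them (−0.124 to −0.0716), so the numbers did not pair all groups. Alternatives were other groups in the fit, a replicate block, thresholds, normalizations, a variance trend, 16 added to intensities, a filter on the dimmest 25% and leaving out each array. Sequences were not used here. With 2 arrays per group, the number of arrays limits the precision.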

Additional observations from a re-analysis of the deposited data

How the results depend on the processing

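Of 234 values of *HAT1* and *HAT2* under the alternatives, 218 kept their direction and their side of the threshold. With no B criterion, *HAT1* (−0.77) and *HAT2* (0.39) passed between mock groups of both genotypes, as did *HAT2* between BR groups (0.52) and over both treatments (0.46). With a variance trend, *HAT2* passed over both treatments (0.46). On the values as deposited, *HAT1* was called between mock groups (−1.74), and *HAT2* turned to −0.56 (mock), −0.42 (BR) and −0.49 (both treatments, called), which follows from the lower level of the *yucca* arrays. With 16 added to each intensity, the difference of the *HAT3* responses turned to 0.11 with no call.

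Leaving out single arrays gave *HAT1* values of −1.39 to −1.36 (BR in WT), −0.92 to −0.61 (*yucca* against WT, mock, called without *yucca* BR replicate 1 or 2) and −1.46 to −0.88 (with BR), *HAT2* values of 0.38 to 0.53 (over both treatments, called without WT BR replicate 1) and *HAT3* values of −0.21 to 0.20 (interaction, no call). The cause of these changes was not tested. A replicate block changed no call of *HAT1* or *HAT2* (BR in WT −1.37, adjusted p = 0.00428 from limma; BR in *yucca* −1.78, adjusted p = 0.000686), and ended that of *HAT3* over both treatments (−0.56). Under the block, 7 probe sets were higher and 16 lower for the interaction, and all 4 root markers were lower in *yucca* mock. With crossed numbers, 2027 probe sets were higher and 2103 lower in *yucca* after BR, against 1879 and 1946. Either block gave both genotypes a shared term, whereas same-numbered replicates deviated together only within genotypes. Pairing within each genotype was therefore not modelled, and its effect on the responses to BR was not tested.

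Over all probe sets, 275 were called higher and 215 lower for BR in WT (508 and 457 with no B criterion, 342 and 297 with only 2 groups fitted, and at least 130 and 88 without 1 array). For BR in *yucca* they were 401 and 377 (1038 and 1056 with no B criterion, 228 and 184 with only 2 groups fitted). For the interaction, 2 and 4 were called, against up to 18 and 128 and down to 0. Between mock groups 1948 and 2000 were called (5885 and 6289 with no B criterion, 265 and 15356 as deposited), and between BR groups 1879 and 1946 (5922 and 6194, and 204 and 15352). The lowest *HAT1* intensity, 60.4, was above its array's median, whereas *HAT3* after BR lay below its array's median on 3 of 4 arrays, so that its folds are more open to background.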
